A study of Mus musculus with 16 samples.

Results

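GF mice that had received the microbiota of control mice (C/-Lop recipients, 4 arrays) were compared with GF mice that stayed without microbes (GF, 4 arrays). These 8 arrays, chosen by their group labels alone, are 8 of the 16 of the series. The question behind the comparison is which transcripts of the colon wall differ once a complete microbiota has been placed in a mouse raised without one. All mice were wild type C57Bl/6, and total RNA of the smooth muscle of the proximal colon was hybridized to Illumina mouse BeadChips, whose 25697 probes each sit on a set of beads that are averaged into 1 intensity. The recipients were given cecal contents of mice that had not had loperamide, and were studied 4 weeks after colonization by the labels and 3 to 4 weeks by the study's methods. Their age when colonized is 8 to 10 weeks in its methods and 12 to 14 weeks in its results, so they were older when studied. For the GF mice on the arrays no age is stated in the sources used here. The other arrays are used only where named. They hold 4 recipients of the microbiota of mice with pharmacologically induced constipation (PIC), whose donors took 0.1% loperamide for 7 days (C/+Lop), and 4 mice raised with microbes under specific pathogen free conditions (SPF).

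A mouse raised without microbes has an immature mucosal immune system. Plasma cells, the B lineage cells that secrete IgA, are few in its gut wall and become numerous after colonization. Epithelial cells respond to bacteria with secreted lectins and other antimicrobial proteins, and the absorptive surface of a germ free gut differs from that of a colonized gut in the enzymes and transporters it carries.

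The defining markers of smooth muscle were measured on every array, with Acta2, smooth muscle actin, at 14.16 to 14.35 on the log2 intensity scale in recipients and 14.20 to 14.30 in GF mice. The epithelial markers Krt8, Krt20 and Vil1, singled out after their values were seen, were abundant too. Krt8, an epithelial keratin, lay at 13.67 to 13.72 in recipients and 13.78 to 13.998 in GF mice, so the tissue labelled as smooth muscle held abundant epithelial transcripts as well. Median intensity was 124.3 to 145.3 on recipient arrays and 124.1 to 141.7 on GF arrays, and 12463 to 13103 and 12364 to 13238 probes were above background. The labels do not say whether each array holds a different animal, so p-values reflect the spread among arrays, and that spread may be partly technical. Xist, the transcript of the inactive X chromosome, was above background on recipient replicates 2 and 3 (6.88 and 6.90) and on none of the other 6 arrays (4.59 to 4.99). The Y-linked Eif2s3y was at 4.64 and 4.39 on the same replicates, 8.19 and 8.10 on recipient replicates 1 and 4 and 8.21 to 8.47 in GF mice, so sex was not balanced between the groups. Recipient replicate 4 stood apart in interferon-induced genes, as given below with the results it touches.

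Across the 14102 probes tested in 1 limma fit over the 4 groups of arrays, 381 (2.7%, with 1.41% higher and 1.29% lower) differed between recipients and GF mice at an adjusted p under 0.05, and 2517 did at an unadjusted p under 0.05. By gene, with 1 probe for each of 9862, 272 (2.76%) were called, 144 (1.46%) higher and 128 (1.3%) lower in recipients. The median change was 1.54-fold among genes called higher and 1.60-fold among those called lower, and the 2 groups did not overlap on 265 of the 272, against 13.4% of all genes. The call and the overlap rest on the same values, so this share among called genes is no separate support. With 1 array left out, the number of probes called was 99 without recipient replicate 2, 128 and 133 without recipient replicates 3 and 4, 141 without GF replicate 3, 177 and 210 without GF replicates 1 and 4, and 343 and 302 without recipient replicate 1 and GF replicate 2. In all 8 of these fits 65 genes were called, 40 higher and 25 lower, and below a gene is said to hold its call when it is one of these. Holding does not cover the imbalance of sex. Ms4a6d, Dnajc3, Sec61b, Ero1b, Lman2, Pglyrp1, Ch25h and Gbp10, among others, did not pass on the recipient and GF arrays without Xist. That setting drops recipient replicates 2 and 3, so sex and the smaller number of arrays are not separated in it. With Xist as a covariate on all arrays, where 156 probes were called, the genes named here did pass.

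**Figure D1:**
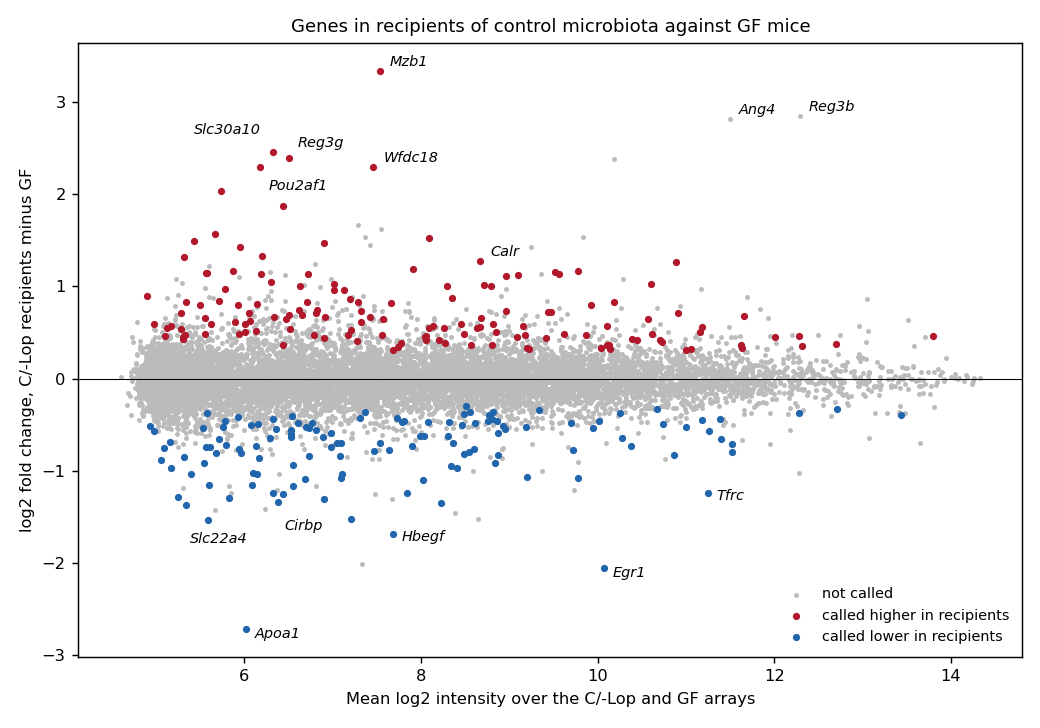
The log2 fold change of each of 9862 genes (vertical axis, C/-Lop recipients minus GF) against its mean log2 intensity over the arrays of both groups (horizontal axis), with genes called at an adjusted p under 0.05 in red (144 higher) and blue (128 lower) and the rest in gray. Among called genes Mzb1 had the largest increase and Apoa1 the largest decrease, and Ang4 and Reg3b had log2 fold changes of 2.82 and 2.85 but did not pass the test.

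Mzb1, a gene of antibody-secreting cells, had the largest log2 fold change of the called genes. Of 19 measured genes of antibody-secreting and B cells, 9 rose, none fell and 10 did not pass, where 1.46% of all genes rose, and the list had a median log2 fold change of 0.52 against -0.01 over all genes. By sign, 14 of the 19 had a positive log2 fold change and 5 a negative one, down to -0.50. Mzb1 encodes a chaperone that assists antibody assembly in plasma cells and had log2 intensities of 9.06, 9.30, 8.67 and 9.82 in recipients, against 5.82, 5.81, 6.01 and 5.84 in GF mice. Every recipient lay more than 2 log2 units above every GF mouse, and the mean was 10.1-fold higher (limma, log2 difference 3.34 ± 0.32 SE; adjusted p = 1.81e-04). Fcrla, Fkbp11, Xbp1 and, among folding genes, Hyou1, Pdia6, Hsp90b1, Dnajc3 and Hspa5 are given below although they were chosen after their values were seen. In bulk tissue, more cells of a type and more RNA per cell cannot be told apart.

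Pou2af1, a coactivator of B cell transcription, had log2 intensities of 7.08, 7.59, 7.01 and 7.61 in recipients and 5.35, 4.79, 5.15 and 4.83 in GF mice (4.90-fold higher; log2 SE 0.24, adjusted p = 2.70e-04 from limma). Tnfrsf17, the survival receptor BCMA of plasma cells, was at 6.75, 6.86, 6.37 and 7.05 in recipients. It was not well above background on any GF array (4.79, 4.63, 4.73 and 4.72), which makes it at least 3.08-fold higher in recipients. Irf4, a transcription factor of plasma cell differentiation, was likewise above background in recipients only (5.93, 5.92, 5.76 and 6.31, against 4.64, 4.43, 4.92 and 4.67 in GF mice) and at least 1.79-fold higher. For such bounds the lowest signal of any probe above background on a GF array stood in for the gene where its own value was lower. All 4 genes held their calls when any single array was left out, and none of them overlapped between the groups.

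Ly6d, a surface protein of early B cells that some epithelia also carry, was at 6.73, 7.07, 6.74 and 6.92 in recipients, against 5.15, 5.71, 5.69 and 5.57 in GF mice (2.52-fold higher). Bhlha15, a transcription factor of cells specialized for secretion, was at 7.59, 7.20, 7.64 and 7.09 in recipients and 5.41, 6.17, 5.54 and 4.91 in GF mice. It was 3.66-fold higher by its brightest probe, with log2 fold changes of 1.87, 1.42 and 1.31 over its 3 probes, each of them called. Fcrla, an Fc receptor-like protein of B cells, and Fkbp11, a prolyl isomerase of secretory cells, were 2.22- and 2.23-fold higher. Their calls were lost without recipient replicate 2 (adjusted p = 0.0507 and 0.0741 from limma) and, for Fkbp11, without recipient replicate 3 (0.0681), and the third probe of Fcrla had a log2 fold change of 0.39 (adjusted p = 0.103). The immunoglobulin genes themselves were not analysed here. Prg2, the major basic protein of eosinophil granules, was at 6.31, 6.16, 5.97 and 6.28 in recipients and below background on all GF arrays (4.83, 4.61, 4.78 and 4.55), at least 2.06-fold higher. The mean log2 intensity over the antibody list was 7.35 to 7.72 in recipients and 6.70 to 6.74 in GF mice, so the groups were apart for the list as a whole. The count of 9 genes was 6 to 9 with single arrays left out (6 without recipient replicate 2), and 6 on the arrays without Xist.

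**Figure D2:**
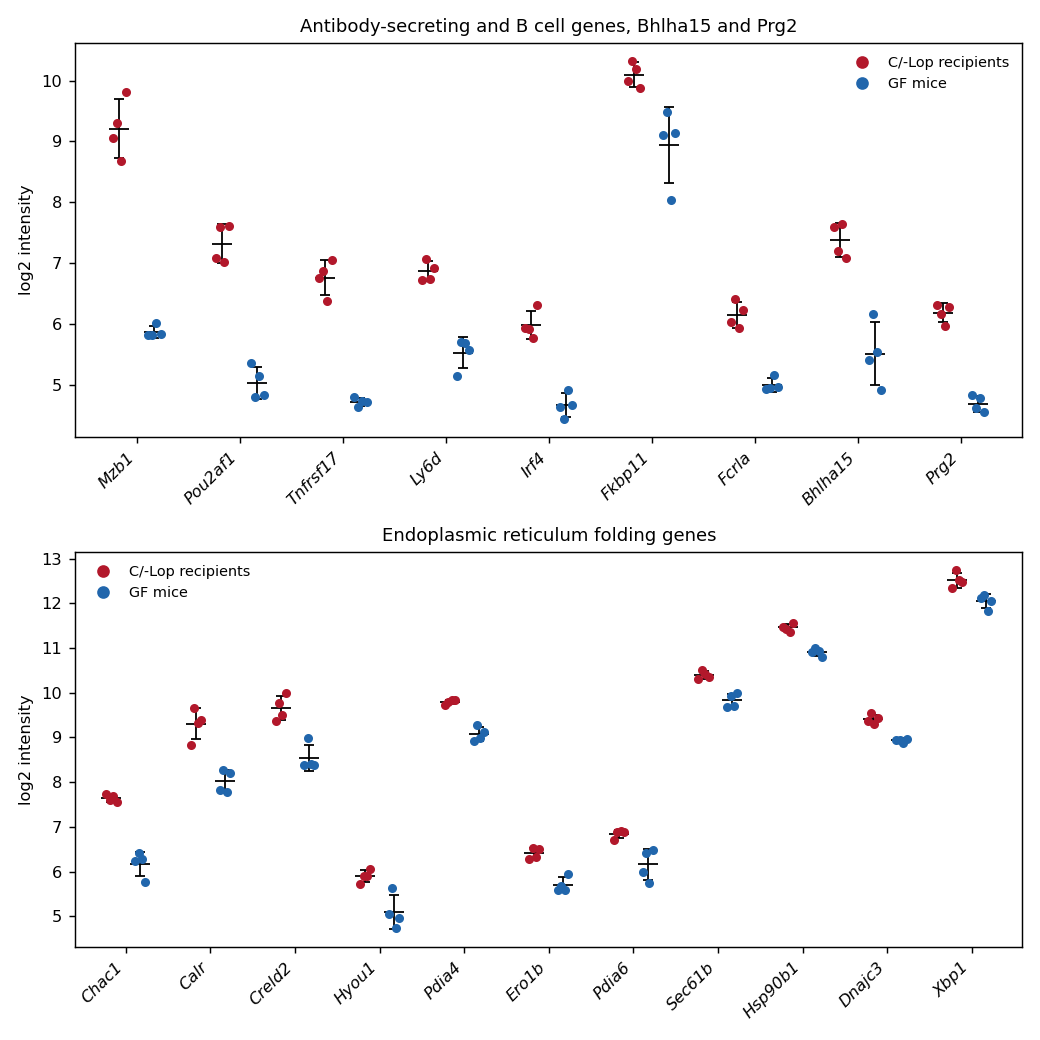
Log2 intensity (vertical axis) of antibody-secreting and B cell genes with Bhlha15 and Prg2 (top) and of genes of protein folding in the endoplasmic reticulum with Chac1 (bottom) on each array, with 4 C/-Lop recipients (red) left of 4 GF mice (blue) for each gene. Bars are the mean and SD. Every recipient lay above every GF mouse for each gene drawn, as for Mzb1 (8.67 to 9.82 in recipients and 5.81 to 6.01 in GF mice).

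Genes for protein folding in the endoplasmic reticulum rose with them. Cells that secrete large amounts of protein need chaperones, disulfide isomerases and a translocation channel in this compartment, and the transcription factors XBP1 and ATF6 raise their transcription in the unfolded protein response. Of 24 measured genes of this list, 10 rose, none fell and 14 did not pass, where 1.46% of all genes rose. The median log2 fold change was 0.41 against -0.01 over all genes, and 15 genes did not overlap between the groups in this direction (6.39% of all genes). Creld2 and Xbp1 are in the antibody list too. Chac1, an enzyme that degrades glutathione and is induced in the unfolded protein response, had the largest change. The list counts it although it is not itself a gene of protein folding. It was at 7.73, 7.60, 7.69 and 7.56 in recipients, against 6.22, 6.41, 6.27 and 5.77 in GF mice, 2.78-fold higher (limma, log2 difference 1.47 ± 0.16 SE; adjusted p = 2.92e-04).

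Calr, the calcium-binding chaperone calreticulin, was at 8.83, 9.66, 9.32 and 9.40 in recipients and 7.82, 8.28, 7.79 and 8.21 in GF mice (2.43-fold higher). Creld2, a protein of this compartment induced when folding is disturbed, was at 9.37, 9.77, 9.51 and 9.99 in recipients and 8.38, 8.98, 8.41 and 8.39 in GF mice (2.17-fold higher). Pdia4, a disulfide isomerase, was at 9.74, 9.79, 9.84 and 9.83 in recipients, against 8.91, 9.28, 8.996 and 9.13 in GF mice (1.65-fold higher). Smaller changes separated the groups as well. Sec61b, a subunit of the translocation channel, was 1.48-fold higher, Hsp90b1, the chaperone GRP94, 1.47-fold and Dnajc3, a co-chaperone, 1.39-fold, and the 2 groups were apart for all 3. These 7 genes held their calls without any single array, whereas Xbp1 (1.38-fold), Pdia6 (1.61-fold) and Hyou1 (1.74-fold) lost them. For Xbp1 and Pdia6 this happened without recipient replicate 2, 3 or 4 or GF replicate 3, with GF replicate 4 for Xbp1 and GF replicate 1 for Pdia6 (adjusted p up to 0.0825 and 0.0838 from limma), and for Hyou1 without any array but recipient replicate 1 and GF replicate 2 (up to 0.0982). Hspa5, the chaperone BiP, was measured by a dim probe, above background on 2 recipient arrays and no GF array, and differed by 0.22 on the log2 scale (95% interval -0.09 to 0.53). Outside the list, Ero1b, the oxidase that recharges disulfide isomerases, was 1.63-fold higher and Lman2, a cargo receptor of the secretory route, 1.40-fold, both singled out after their values were seen and both held. The list's mean log2 intensity was 9.47 to 9.55 in recipients and 8.88 to 9.18 in GF mice. Its count was 7 to 10 with single arrays left out, and 5 on the arrays without Xist.

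Promoters are shown for the folding genes because many of this list share a known regulatory element. The endoplasmic reticulum stress response element, CCAAT and CCACG with 9 bases of any kind between them, to which ATF6 and XBP1 bind with NF-Y, was searched on both strands in the 250 bases before the start of each RefSeq gene (GRCm38.p6). It was present in 37 of 32851 windows (0.113%) and in 10 of 7985 measured genes with a window (0.125%). Of 22 folding genes with a window it was found in 7, among them Calr, Creld2, Dnajc3, Hsp90b1 and Pdia6 of 9 that rose, and Hspa5 and Syvn1 of 13 that did not pass. Among the 106 other genes called higher with a window, Ero1b had it. Several genes of the list are textbook targets of this response, so the share describes these letters and is not a result of the colonization. The windows below run in the direction of the gene, with the element in capitals. It stands on the gene's own strand in Dnajc3, Pdia6 and Hspa5, on the opposite strand in Calr and Creld2, and once on each in Hsp90b1.
Calr, chr8:84847045-84847123, minus strand: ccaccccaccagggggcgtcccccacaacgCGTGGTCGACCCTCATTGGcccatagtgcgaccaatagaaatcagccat
Creld2, chr15:88819490-88819568, plus strand: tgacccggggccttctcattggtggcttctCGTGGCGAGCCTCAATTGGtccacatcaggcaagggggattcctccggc
Dnajc3, chr14:118937797-118937875, plus strand: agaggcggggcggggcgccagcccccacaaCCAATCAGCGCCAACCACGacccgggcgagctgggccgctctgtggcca
Hsp90b1, chr10:86705503-86705686, minus strand: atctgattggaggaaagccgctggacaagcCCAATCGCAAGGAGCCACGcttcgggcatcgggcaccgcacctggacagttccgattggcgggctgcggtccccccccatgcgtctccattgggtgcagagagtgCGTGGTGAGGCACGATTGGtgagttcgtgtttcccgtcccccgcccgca
Pdia6, chr12:17266461-17266539, plus strand: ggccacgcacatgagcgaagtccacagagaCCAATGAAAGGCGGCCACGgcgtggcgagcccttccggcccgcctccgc
Hspa5, chr2:34771995-34772073, plus strand: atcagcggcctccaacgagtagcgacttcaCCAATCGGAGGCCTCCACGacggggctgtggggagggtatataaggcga

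Other leukocyte genes were higher too, less tightly. Of 21 measured genes of macrophages and dendritic cells 5 rose (1.46% of all genes did) and none fell, with a median log2 fold change of 0.58, and 20 of the 21 had a positive log2 fold change. Lyz2, the lysozyme of macrophages and granulocytes, was at 10.62, 11.31, 11.18 and 11.35 in recipients and 10.28, 9.92, 10.01 and 10.13 in GF mice (2.04-fold higher). The complement subunit C1qc was 2.03-fold higher, the Fc receptor Fcgr3 2.01-fold, the fractalkine receptor Cx3cr1 2.19-fold and the chemokine Ccl6 1.73-fold. None of the 5 held its call. Without recipient replicate 2 or 4 the list had 0 called genes, without recipient replicate 3 or GF replicate 2 or 3 it had 1, without GF replicate 4 it had 2, and on the arrays without Xist 0. Its mean log2 intensity was nevertheless apart, at 8.08 to 8.51 in recipients and 7.50 to 7.85 in GF mice. All 12 genes of MHC class II presentation, with which such cells show peptides to T cells, had positive log2 fold changes (median 0.63, and 0.43 without recipient replicate 4), and none of them passed.

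Ms4a6d, a membrane protein of myeloid cells, did hold its call. It was at 8.29, 8.80, 8.85 and 9.51 in recipients and 7.65, 7.33, 7.32 and 7.02 in GF mice, 2.89-fold higher (log2 SE 0.25; adjusted p = 0.00484 from limma), and did so by both of its probes (log2 fold changes 1.53 and 1.49). Gimap7, a GTPase of lymphocytes, was at 6.41, 6.10, 6.21 and 7.11 in recipients. On GF arrays it was not well above background (4.88, 4.80, 4.99 and 4.89), and it was at least 2.50-fold higher in recipients. Rac2, a GTPase of blood cells, was 1.96-fold higher in recipients and held its call, and Cd52, a surface protein of leukocytes, was 2.19-fold higher and lost it without recipient replicate 4 (adjusted p = 0.0559 from limma). Both were singled out after their values were seen. Of 20 genes of T and NK cells only the early activation marker Cd69 was called (2.24-fold higher), and it was not without recipient replicate 2 or 4 (adjusted p = 0.0616 and 0.0582 from limma).

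Of 32 interferon response genes only Gbp10, a guanylate-binding protein, rose. It was below background on all GF arrays and at least 1.20-fold higher in recipients. The list had a median log2 fold change of 0.42, and this rested on recipient replicate 4, without which it was 0.01. On that array the list averaged 9.21 (log2 intensity), against 7.55 to 7.61 on the other recipient arrays and 7.48 to 7.74 on GF arrays.

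Antimicrobial and epithelial defence genes had large but uneven differences. Reg3g, a bactericidal lectin that epithelial cells secrete, was at 7.51, 7.49, 7.24 and 8.58 in recipients and 5.28, 5.16, 5.24 and 5.56 in GF mice, 5.25-fold higher (limma, log2 difference 2.39 ± 0.58 SE; adjusted p = 0.0415). The groups were far apart, yet the call was lost whichever single array was left out (adjusted p = 0.0625 to 0.117). Reg3b, the related lectin, had log2 intensities of 13.75, 13.56, 13.61 and 13.94 in recipients and 11.74, 9.77, 10.57 and 11.38 in GF mice (log2 difference 2.85 ± 0.86 SE; adjusted p = 0.0914). Ang4, a bactericidal ribonuclease of goblet and Paneth cells, was at 13.44, 12.80, 12.70 and 12.70 in recipients and 10.06, 11.92, 8.45 and 9.92 in GF mice (log2 difference 2.82 ± 0.75 SE; adjusted p = 0.0568). Neither passed the test, although no GF mouse reached the level of any recipient in either gene. Ang4 passed without GF replicate 2 and both passed in a fit of the 8 arrays alone, where the spread of the SPF and C/+Lop arrays does not enter. Slpi, a protease inhibitor of mucosal secretions, differed by 1.67 log2 units (SE 0.44; adjusted p = 0.0568). Of the 27 measured genes of this list, Reg3g alone was called higher (1.46% of all genes were), the median log2 fold change was 0.47, and the mean log2 intensity was 8.66 to 9.01 in recipients and 8.13 to 8.24 in GF mice.

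Wfdc18, a secreted protein of the whey acidic protein family, was at 8.96, 8.69, 8.43 and 8.33 in recipients and 6.53, 6.64, 5.42 and 6.64 in GF mice. It was 4.91-fold higher (log2 SE 0.27; adjusted p = 5.41e-04 from limma) and held its call, as did its relative Wfdc17 (2.03-fold higher, singled out after its value was seen). Of 28 genes of microbial pattern recognition 4 rose, against 1.46% of all genes, and none fell, with a median log2 fold change of 0.13. Pglyrp1, a peptidoglycan recognition protein that kills bacteria, was at 11.92, 12.03, 12.04 and 11.98 in recipients and 11.46, 11.40, 11.05 and 11.37 in GF mice (1.60-fold higher) and held its call. Il18, a cytokine that inflammasomes activate, was 2.01-fold higher, and the receptors of bacterial lipoproteins Tlr2 and Tlr6 1.67- and 1.40-fold. Those 3 calls were lost without recipient replicate 2, 3 or 4 or GF replicate 3, among others (adjusted p up to 0.0825, 0.112 and 0.133 from limma). Of 23 goblet cell genes 3 rose, with the same background of 1.46%, the membrane mucin Muc1 (2.68-fold), the fucosyltransferase Fut2 (1.78-fold) and Spink4, a secreted goblet cell peptide (1.38-fold). Fut2 and Spink4 kept the call in 1 of the 8 fits and Muc1 in 3, without recipient replicate 1 or GF replicate 1 or 2, and 2 of the other 3 probes of Muc1 did not pass (log2 fold changes 0.71 and 0.65). The mean of the goblet cell list overlapped (9.77 to 9.85 in recipients and 9.02 to 9.82 in GF mice), as did that of 26 genes of colonocyte and crypt epithelium (10.57 to 10.65 in recipients and 10.54 to 10.87 in GF mice).

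**Figure D3:**
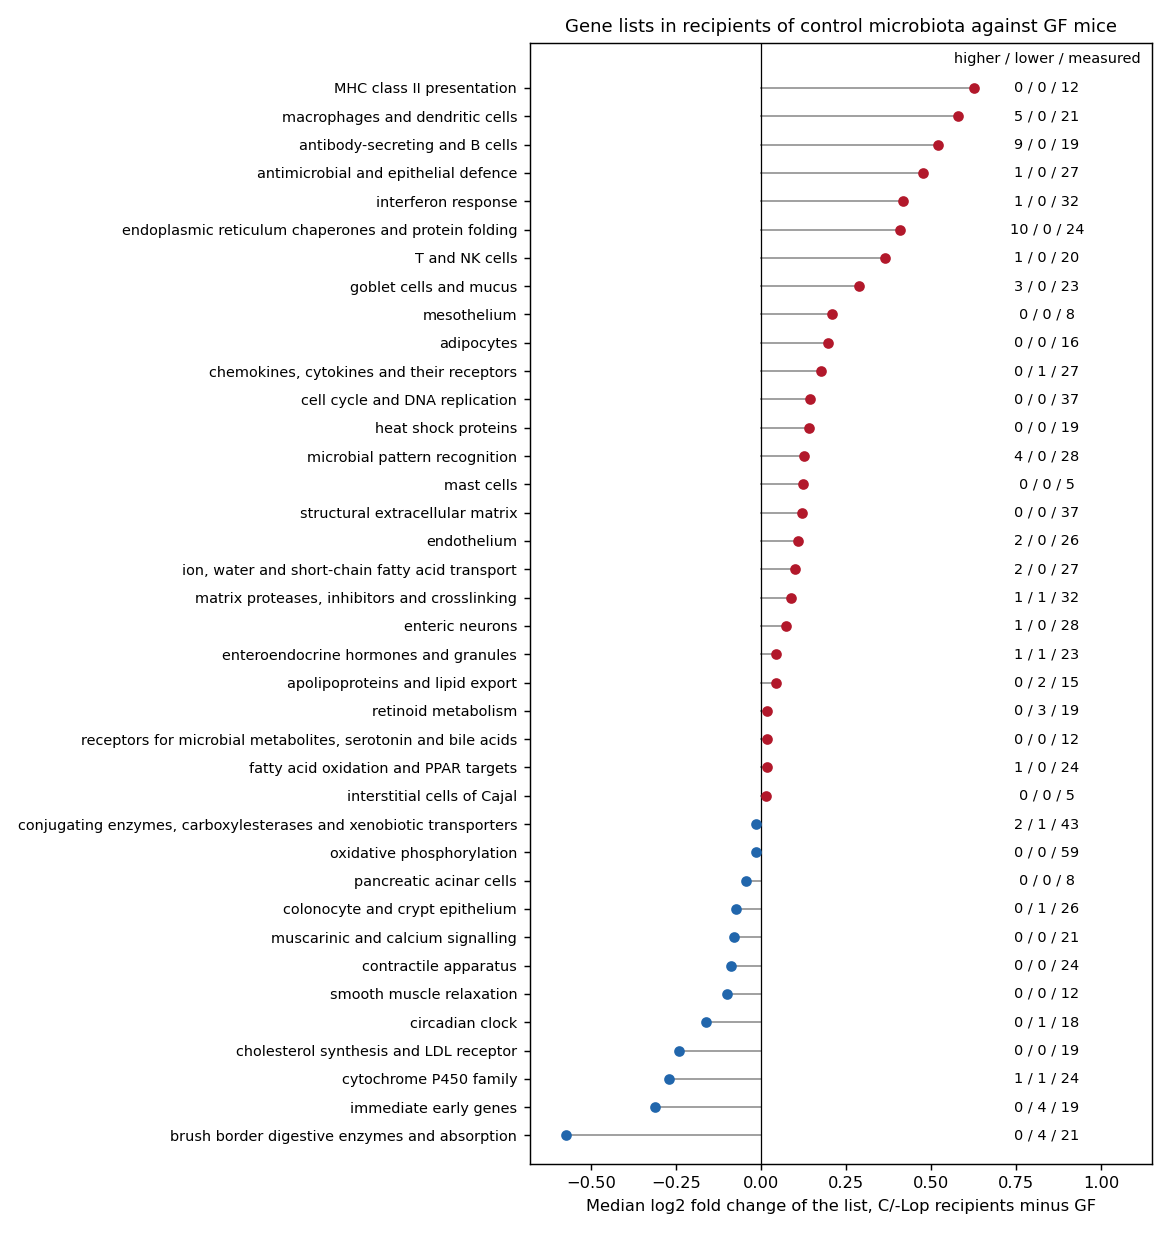
The median log2 fold change (horizontal axis, C/-Lop recipients minus GF) of each gene list with 5 or more measured genes, with the number of genes called higher, called lower and measured at the right. MHC class II genes had the highest median (0.63, none of 12 called) and brush border genes the lowest (-0.57, 4 of 21 called lower); the lists of protein folding (10 of 24) and antibody-secreting cells (9 of 19) held the most called genes.

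Brush border genes, which digest and absorb nutrients at the epithelial surface, were lower. Of 21 measured genes 4 fell and none rose, where 1.3% of all genes fell, and the median log2 fold change was -0.57, with 19 of the 21 negative. Slc6a19, a carrier of neutral amino acids, was not well above background on any recipient array (4.66, 4.58, 4.55 and 4.63) and was at 5.31, 6.05, 6.66 and 5.55 in GF mice, at least 1.68-fold lower in recipients. Treh, the trehalose-splitting enzyme, was likewise below background in recipients (4.59, 4.73, 4.68 and 4.63), against 5.66, 5.49, 7.14 and 5.83 in GF mice, at least 1.85-fold lower. These 2 held their calls, although neither passed on the arrays without Xist. Both passed with Xist as a covariate. The peptidases Dpp4 and Mep1a were 1.39- and 1.89-fold lower. Each passed in 1 of the 8 fits with an array left out, without GF replicate 2 and recipient replicate 1 in that order, so the list had 2 called genes in most of them and 4 as reported. Its mean log2 intensity was 7.56 to 8.06 in recipients and 8.20 to 8.81 in GF mice. The mean of the colonocyte and crypt list overlapped. Of its 26 genes, 5 were lower in recipients without overlap (7.06% of all genes) and 2 higher (6.39%). The part of tissue makeup in these values was not tested.

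Apoa1, the main protein of high density lipoprotein, had the largest decrease among the called genes. It was not well above background on any recipient array (4.91, 4.56, 4.77 and 4.42), and GF mice varied widely (6.61, 6.14, 8.85 and 7.91), so that it was at least 4.71-fold lower in recipients (adjusted p = 0.0270 from limma). The call was lost without recipient replicate 2, 3 or 4 or GF replicate 3 or 4 (adjusted p = 0.0681 to 0.0806). Slc22a4, a transporter of ergothioneine and organic cations, was at 5.39, 4.79, 4.65 and 4.46 in recipients and 6.11, 6.02, 7.03 and 6.25 in GF mice. It was above background on 1 recipient array, so its measured 2.89-fold decrease is imprecise, and its call held. Cck, the hormone cholecystokinin, was 2.36-fold lower (6.05, 5.51, 5.44 and 5.82 in recipients and 6.87, 6.61, 7.24 and 7.05 in GF mice), with the call lost without recipient replicate 2 or 3 or GF replicate 3 (adjusted p = 0.0560, 0.0537 and 0.0509 from limma). Chgb, a protein of hormone and neurotransmitter granules, moved the other way (1.65-fold higher) but kept its call only without GF replicate 1. Ms4a10, a membrane protein for which no role is given here, was 2.52-fold lower and kept its call only without recipient replicate 1.

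Some single genes of metal transport and binding, which do not form a list here, were called. Tfrc, the transferrin receptor through which cells take up iron, was at 10.49, 10.82, 10.66 and 10.57 in recipients and 11.73, 12.21, 11.73 and 11.81 in GF mice. It was 2.36-fold lower (limma, log2 difference -1.24 ± 0.15 SE; adjusted p = 5.41e-04), and -1.18 by its other probe. Slc30a10, which exports manganese, was at 8.16, 6.96, 7.40 and 7.71 in recipients and 4.65, 4.52, 5.96 and 5.27 in GF mice, 5.49-fold higher (log2 SE 0.45; adjusted p = 0.0109), and both genes held. Slc11a2, an importer of iron and other divalent metals, was 1.27-fold higher and lost its call without any single array (adjusted p = 0.0595 to 0.129). The metallothionein Mt2, which binds zinc and copper and was singled out after its value was seen, was 2.24-fold lower and passed only without recipient replicate 1 or GF replicate 2.

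Enzymes of drug and retinoid metabolism were called in small numbers, where 1.46% of all genes rose and 1.3% fell. Of 24 cytochrome P450 genes 1 rose and 1 fell. Cyp2d22 was 2.01-fold higher (9.61, 9.16, 9.19 and 9.25 in recipients and 8.23, 7.82, 8.68 and 8.46 in GF mice) and held, whereas Cyp2d9, of the same family, was 2.15-fold lower and lost its call without any single array (adjusted p = 0.0506 to 0.128 from limma). Such near-identical family members may share probe signal. Of 43 conjugating enzymes and transporters the glutathione transferases Gstp2 and Gstp1 rose (1.63- and 1.28-fold) and the epoxide hydrolase Ephx2 fell (1.66-fold), none of them holding. Of 19 genes of retinoid metabolism 3 fell, against 1.3% of all genes, Aldh1a7, a relative of the retinaldehyde dehydrogenases (2.05-fold), the retinol dehydrogenase Rdh5 (1.45-fold) and Lrat, which stores retinol as esters and was above background on 1 recipient and 3 GF arrays (1.80-fold). Rdh5 lost its call without recipient replicate 2, 3 or 4, Aldh1a7 without recipient replicate 3 or 4 or GF replicate 3 or 4, and Lrat in all fits but that without GF replicate 3.

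Immediate early genes, which cells transcribe within minutes of a stimulus or of handling, were lower in recipients. Of 19 measured genes 4 fell and none rose, where 1.3% of all genes fell. The median log2 fold change was -0.31 against -0.01 over all genes, and 11 genes did not overlap between the groups in this direction (7.06% of all genes). Egr1, a zinc finger transcription factor, was at 8.88, 9.36, 9.18 and 8.78 in recipients and 11.19, 11.17, 10.35 and 11.70 in GF mice. It was 4.15-fold lower (limma, log2 difference -2.05 ± 0.32 SE; adjusted p = 0.00412) and held. Fos was at 9.02, 9.27, 9.31 and 9.35 in recipients and 10.58, 10.66, 9.77 and 10.26 in GF mice (2.11-fold lower), Atf3, a stress-induced repressor, was 2.47-fold lower and Fosb 1.75-fold. All recipients lay below all GF mice in these 3 genes, but their calls were less firm. Atf3 lost its call without any single array (adjusted p = 0.0617 to 0.0916), Fos in every fit but that without GF replicate 3 (up to 0.0822) and Fosb in every fit but those without GF replicates 1 and 3 (up to 0.112). Jun, singled out after its value was seen, was at 8.01 to 8.24 in recipients and 7.95 to 8.24 in GF mice (log2 fold change 0.07, 95% interval -0.22 to 0.36). How long each tissue waited before lysis was not given in the sources used here, and its part in these values was not tested.

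Other genes fell with them. Hbegf, a growth factor of the epidermal growth factor family, was at 6.34, 7.17, 7.00 and 6.83 in recipients and 8.32, 8.89, 7.96 and 8.92 in GF mice (3.22-fold lower), and kept its call only without GF replicate 1 or 3 (adjusted p up to 0.0649 from limma). Cirbp, an RNA-binding protein induced by cold, was at 6.77, 6.73, 6.25 and 6.03 in recipients and 8.30, 7.49, 7.83 and 8.25 in GF mice, 2.87-fold lower, and held. Ch25h, which makes 25-hydroxycholesterol, was 2.38-fold lower and Edn1, the vasoconstrictor endothelin 1, singled out after its value was seen, 1.93-fold. Both held, and in all of these genes the groups did not overlap. Odf3b, for which no role is given here, was at 7.50, 7.59, 7.72 and 7.39 in recipients and 8.92, 8.93, 8.93 and 8.83 in GF mice, 2.55-fold lower with little spread, and by its other probe as well (log2 fold change -1.39). Zc3h6, a zinc finger protein above background on 1 recipient array, was 2.44-fold lower and held, and Tatdn2, a putative nuclease, was 2.36-fold lower and passed only without recipient replicate 4.

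**Figure D4:**
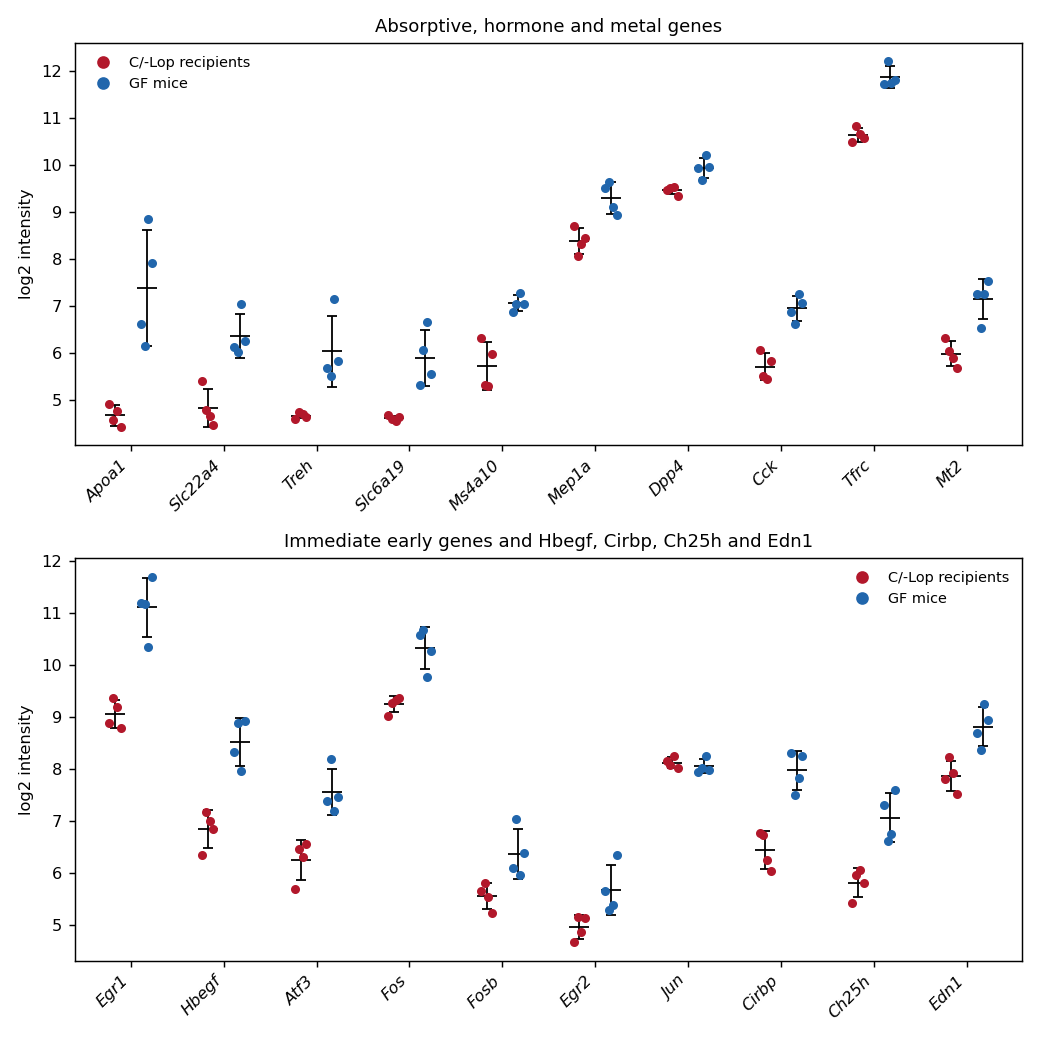
Log2 intensity (vertical axis) of absorptive, hormone and metal genes (top) and of immediate early genes with Hbegf, Cirbp, Ch25h and Edn1 (bottom) on each array, with 4 C/-Lop recipients (red) left of 4 GF mice (blue) for each gene; bars are the mean and SD. Recipients lay below GF mice on every array for all genes drawn but Jun, as for Egr1 (8.78 to 9.36 in recipients and 10.35 to 11.70 in GF mice); Egr2 did not pass the test.

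No gene of the contractile apparatus passed. Of 24 measured genes none rose or fell, and the median log2 fold change was -0.09 (0.06 without GF replicate 3). Myh11, the smooth muscle myosin heavy chain, was at 12.22, 12.20, 12.38 and 12.08 in recipients and 12.30, 11.81, 12.94 and 12.26 in GF mice (log2 fold change -0.11, 95% interval -0.56 to 0.34). Acta2 differed by 0.01 (-0.15 to 0.16), Actg2, the enteric smooth muscle actin, by -0.08 (-0.31 to 0.14), Mylk, the kinase of myosin light chain, by -0.08 (-0.49 to 0.33) and Des, the intermediate filament desmin, by -0.14 (-0.55 to 0.27). Cnn1, calponin, differed by -0.18 (-0.70 to 0.34), Smtn, smoothelin, by 0.01 (-0.46 to 0.48), and Myocd, the coactivator that drives such genes, by -0.12 (-0.58 to 0.33). GF replicate 3 had the highest mean log2 intensity of this list (10.999) and GF replicate 2 the lowest (10.25), with the recipients between them at 10.40 to 10.66. The intervals of the whole list reached from -0.94 to 0.965, so changes inside these bounds could not be detected in every gene.

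Receptors and nerves did not pass either, apart from the granule gene Chgb. Of 21 genes of muscarinic and calcium signalling, 12 of smooth muscle relaxation, 5 of the interstitial cells of Cajal, 4 of enteric glia and 12 receptors for microbial metabolites, serotonin and bile acids, 0 were called by limma. Chrm3, the muscarinic receptor that contracts smooth muscle, was at 5.56, 5.65, 5.68 and 5.25 in recipients and 6.10, 5.78, 5.38 and 5.72 in GF mice (log2 fold change -0.21, 95% interval -0.72 to 0.30). Chrm2 was above background on 1 recipient array and no GF array. Ffar2, a receptor of short-chain fatty acids, was at 10.51, 10.83, 10.73 and 10.69 in recipients and 10.36, 10.37, 9.12 and 10.81 in GF mice (log2 fold change 0.52, -0.19 to 1.24), so that GF replicate 3 alone was far below the rest. Ffar3, its relative, differed by 0.20 (-0.09 to 0.48), the niacin and butyrate receptor Hcar2 by 0.02 (-0.34 to 0.39), the serotonin receptor Htr4 by 0.12 (-0.16 to 0.40) and Ache, which breaks down acetylcholine and was above background on 1 recipient and 3 GF arrays, by -0.28 (-0.70 to 0.14). Of 28 genes of enteric neurons Chgb alone was called. The mean of the neuronal list was 6.88 to 7.15 in recipients and 6.27 to 7.26 in GF mice, so the groups overlapped. Among 59 genes of oxidative phosphorylation, 37 of the cell cycle, 37 of structural extracellular matrix, 19 heat shock genes and 19 of cholesterol synthesis, limma called 0 as well, with medians of -0.01, 0.14, 0.12, 0.14 and -0.24 on the log2 scale in that order.

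The arrays of SPF mice place these levels beside those of mice that had microbes from birth. The direct comparison of C/-Lop recipients with SPF mice called 1615 of all 9862 genes (16.4%), and it uses the same recipient arrays as the comparison with GF mice. By probe, 1165 of 14102 were higher and 1208 lower in these recipients, a background for the counts below. Of the 19 antibody and B cell genes 3 were higher than in SPF mice, Creld2 among them, 1 was lower and 15 did not pass, which does not show equal levels. Mzb1 averaged 9.21 in C/-Lop recipients, 9.09 in C/+Lop recipients, 9.04 in SPF mice and 5.87 in GF mice, and recipients differed from SPF mice by 0.17 (SE 0.32; adjusted p = 0.750 from limma). Tnfrsf17 differed by 0.21 (SE 0.25; adjusted p = 0.588), Pou2af1 by -0.31 (SE 0.24; 0.387) and Tfrc by 0.21 (SE 0.15; 0.348).

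Of the 24 folding genes 8 were higher than in SPF mice, none was lower and 16 did not pass, Calr among these (log2 difference 0.49; adjusted p = 0.0668 from limma). Chac1 averaged 7.64 in C/-Lop recipients, 7.70 in C/+Lop recipients, 6.62 in SPF mice and 6.17 in GF mice, and recipients of control microbiota exceeded SPF mice 2.03-fold (adjusted p = 0.00241 from limma). Creld2 was 1.72-fold, Sec61b 1.498-fold and, outside this list, Bhlha15 2.21-fold above the SPF level (adjusted p = 0.00556, 0.00229 and 0.00474). Of 27 antimicrobial genes 6 were higher than in SPF mice and 2 lower, with Reg3b 20.7-fold and Reg3g 4.34-fold above the SPF mean (adjusted p = 0.00546 and 0.0233 from limma). For Reg3b this exceeds the difference from GF mice given above, so the SPF mean lay below the GF mean. For Reg3g it is smaller than the difference from GF mice, so the SPF mean lay above the GF mean. SPF arrays were uneven in this list, with a mean of 9.09 on replicate 13 and 8.11 to 8.28 on the others. C/-Lop recipients lay between, at 8.66 to 9.01. Ms4a6d (1.86-fold), Wfdc18 (2.23-fold) and Chgb (1.79-fold) were above the SPF mean too. On the lower side, Egr1 averaged 9.05 in both recipient groups, 10.18 in SPF mice and 11.10 in GF mice, 2.19-fold below SPF in C/-Lop recipients (adjusted p = 0.0265), and Cirbp was 2.44-fold, Ch25h 1.79-fold and Edn1 2.19-fold below it. Of 24 contractile genes 17 were lower than in SPF mice and 7 did not pass, Acta2 (0.07; adjusted p = 0.519) and Actg2 (-0.15; 0.343) among these. Myh11 was 1.99-fold lower (adjusted p = 0.00767), while SPF replicates 2 and 4 stood apart with the highest contractile levels (11.59 and 11.50, against 10.40 to 10.66 in C/-Lop recipients and 10.87 and 10.90 on the other SPF arrays). On these SPF replicates the mean of the colonocyte and crypt list was 10.05 and 10.17. It was 10.67 and 10.63 on the other SPF arrays and 10.57 to 10.65 in C/-Lop recipients. The part of tissue makeup in the comparison with SPF mice was not tested. Without SPF replicate 2, 1059 probes were called between recipients and SPF mice in place of 2373. Between C/+Lop and C/-Lop recipients 0 of 14102 probes passed in limma, and 608 had an unadjusted p under 0.05.

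**Figure D5:**
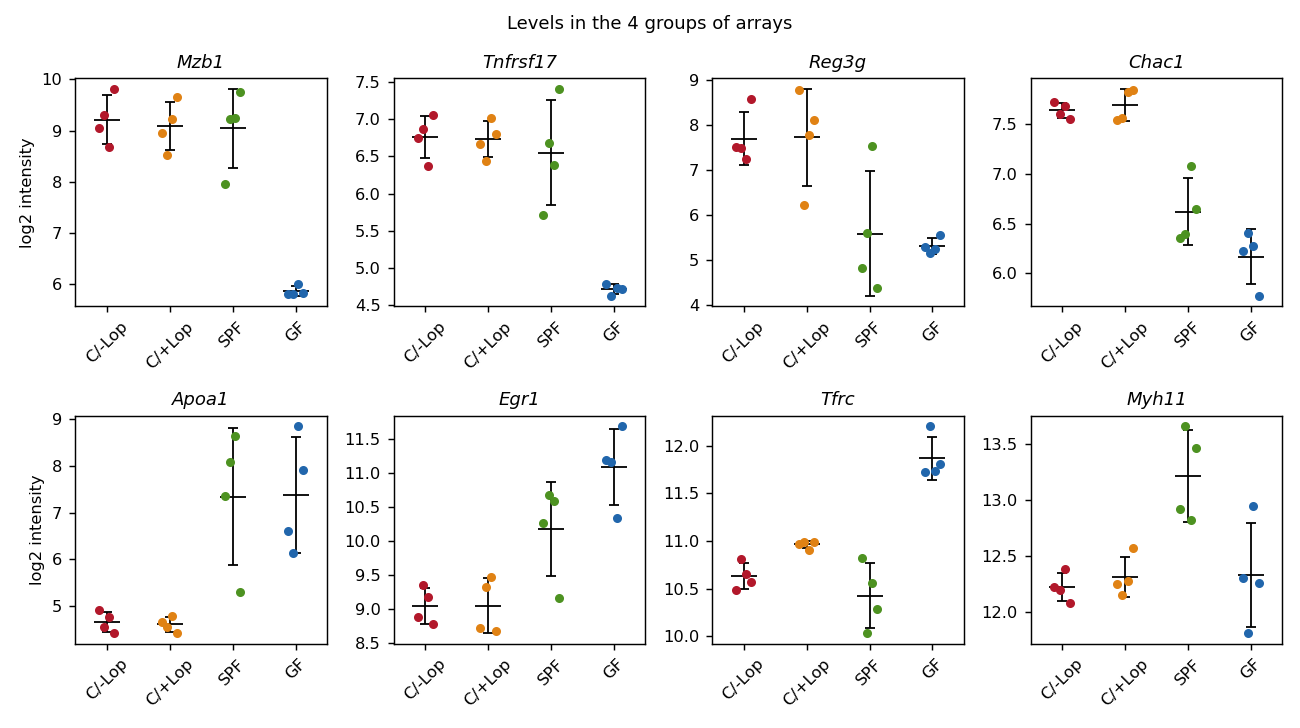
Log2 intensity (vertical axis) of 8 genes on each array of the 4 groups, C/-Lop recipients, C/+Lop recipients, SPF mice and GF mice (4 arrays each, bars are the mean and SD). In C/-Lop recipients Mzb1 and Tnfrsf17 lay 0.17 and 0.21 above the SPF mean without passing the test, Reg3g and Chac1 lay above it and Apoa1, Egr1 and Myh11 below it.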

How the data were processed

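Arrays were grouped by their labels. The authors deposited, per probe and array, the mean bead intensity on a linear scale (not normalized, lowest value 91), its standard error, the count of beads (median 37 to 39) and a detection p-value against negative controls, and log2 values of 16029 probes. The submitters' processing notes name limma, whose version they leave out. In R 4.3.3 with limma 3.58.1, neqc, which inferred its background from the detection p-values and used an offset of 16, quantile-normalized and took log2; the offset shrinks fold changes of dim probes, and quantiles hide a shift common to most genes; the result lay within 0.0251 of the deposited log2 values. Probes with detection p under 0.05 on 4 of 16 arrays or more (14102) entered 1 model with 4 group means (12 residual degrees of freedom), eBayes and Benjamini-Hochberg adjustment, threshold 0.05, two-sided, tested on simulated data. Names came from the platform table (13321 kept probes with 1 gene, 781 unnamed here); the probe with the highest mean stands for its gene. Named genes are the 15 largest changes each way without overlap, up to 5 per list by smallest p, and preset receptor, muscle and sex genes; others are marked. Members and lists were chosen with earlier results of these data known. Some items are not reported here. Alternatives covered values, background, scaling, filters, samples, covariates, weights, block and the methods' t-test. The number of arrays limits precision.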

Additional observations from a re-analysis of the deposited data

Results flagged for a closer look

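In 23 of 304 groups of 4 arrays (7.57%; 111 genes and 41 list means), the highest or lowest array lay farther from the rest than Dixon's 95% limit, where chance gives about 1 in 20. Recipient replicate 4 was high in the interferon response list (9.21, against 7.55 to 7.61 on the other recipient arrays), the list of T and NK cells (6.65, against 5.87 to 5.98), that of microbial pattern recognition (7.77, against 7.58 to 7.60) and in Cd52 (10.64, against 9.92 to 10.01). Recipient replicate 1 was high in Ang4 (13.44, against 12.70 to 12.80) and red blood cell genes (7.46, against 6.98 to 7.04), and low in Pdia6 (6.71, against 6.89 to 6.90) and matrix proteases, inhibitors and crosslinking (7.42, against 7.57 to 7.60). Recipient replicate 2 was low in clock genes (7.98, against 8.13 to 8.15), and recipient replicate 3 in Cyp2d9 (7.19, against 7.54 to 7.60) and Rac2 (6.13, against 6.30 to 6.33).

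Among GF arrays, replicate 2 was high in Creld2 (8.98, against 8.38 to 8.41) and Tfrc (12.21, against 11.73 to 11.81), and low in C1qb (8.20, against 8.55 to 8.60), Mt1 (13.71, against 14.07 to 14.13) and endothelial genes (6.89, against 7.40 to 7.47). GF replicate 3 was high in pancreatic acinar genes (10.45, against 9.30 to 9.36), Mzb1 (6.01, against 5.81 to 5.84) and Fcrla (5.17, against 4.93 to 4.96), and low in Lrat (5.09, against 5.91 to 6.02), Wfdc18 (5.42, against 6.53 to 6.64) and pattern recognition genes (7.39, against 7.48 to 7.50). GF replicate 4 was low in Odf3b (8.83, against 8.92 to 8.93).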

How the results depend on the processing

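The 381 called probes (199 higher, 182 lower in recipients) became 60 (31 and 29) with a replicate block, 156 (93 and 63) with Xist as a covariate, 52 (30 and 22) on the recipient and GF arrays without Xist, 650 (316 and 334) and 802 (404 and 398) with the epithelial or contractile level as a covariate, 1194 (628 and 566) with array weights and 102 (51 and 51) by the methods' t-test, Benjamini-Hochberg adjusted (2577 at an unadjusted p under 0.05). The replicate block was fitted on the 8 arrays alone, where 281 probes were called without it. Chosen after seeing the data, leaving out SPF replicates 2 and 4 gave 699 (345 and 354), GF replicates 2 and 3 51 (24 and 27), and recipient replicate 4 with GF replicate 3 74 (39 and 35). Single arrays left out gave 99 to 343 (55 to 187 higher, 44 to 156 lower). Other settings gave 270 to 491, of which median scaling called 113 lower and put 58.1% of calls on the higher side, and cyclic loess 57.8%, against 199 of 381. No called probe changed sign under any setting run. The groups did not overlap in 265 of the 272 called genes, and there leaving out arrays cannot reverse a sign, so this is no separate support. The cause of the changes in the counts was not tested. Labels share replicate numbers. Same-numbered arrays correlated at 0.02, 0.17, 0.06 and -0.05 in their deviations, and differently numbered ones at -0.20 to 0.20. So few values cannot show whether same-numbered arrays were handled together, and the labels do not say.

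Antibody genes called higher numbered 5 of the 9 among probes detected on all 16 arrays and without GF replicates 2 and 3 (6 to 9 with single arrays left out). The first of these filters removes Pou2af1, Tnfrsf17, Irf4 and Fcrla before the test, so its count is no loss of calls. Folding genes numbered 3 with the replicate block, 5 without the Xist arrays, 4 by the t-test, and 6 without GF replicates 2 and 3 or without recipient replicate 4 and GF replicate 3 (7 to 10). Macrophage genes numbered 1 with no filter or with Xist as a covariate, 3 in the fit of 8 arrays, 9 with array weights or the epithelial covariate, 11 with the contractile one, 10 without SPF replicates 2 and 4, and 0 with the block, without Xist arrays, by the t-test and under both other array exclusions (0 to 5). Brush border genes called lower numbered 7 with weights, 0 without Xist arrays and by the t-test, and 2 among probes detected on all arrays, with Xist as a covariate and without GF replicates 2 and 3 or recipient replicate 4 and GF replicate 3 (2 to 4). The filter for detection on all arrays removes Slc6a19 and Treh before the test. Immediate early genes numbered 7 with weights, 0 by the t-test, 2 with no filter or without recipient replicate 4 and GF replicate 3, and 1 with the block, with Xist as a covariate, without Xist arrays and without GF replicates 2 and 3 (1 to 3). With the contractile covariate 1 contractile gene was called higher. Against SPF mice 2373 probes were called, and 1059 to 3024 without single SPF arrays. The clock gene Csnk1d, called lower, had log2 fold changes of 0.0440 and 0.0386 by a pair of its other probes.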

Other observations

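Interferon-induced genes were higher on recipient replicate 4 than on all other arrays of the series for 24 of 32 measured genes, and than on the 7 other arrays of both groups for 27. Genes named here were chosen after their values were seen. Oas2, a sensor of double-stranded RNA, was at 9.09 on that array and 4.76 to 8.46 on the other 15. Usp18, which removes the ubiquitin-like ISG15, was at 10.40, against 6.62 to 9.60, and the chemokine Cxcl9 at 8.97, against 5.25 to 8.19. None of these 3 genes passed between recipients and GF mice (adjusted p = 0.456, 0.609 and 0.333 from limma). The mean of the list was 8.84 on C/+Lop replicate 4, 7.42 to 7.68 on the other C/+Lop arrays and 7.44 to 7.61 on SPF arrays, so 1 other array of the series was high.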
